A study of Mus musculus with 13 samples.

Results

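miR-455 and miR-140 are microRNAs (miRNAs) that have been studied most in cartilage, and both were measured here in vesicles rather than in cartilage. Each comes from a short hairpin RNA whose left (-5p) and right (-3p) arms can each give a mature miRNA. The 4 rows named for an arm of either hairpin, mmu-miR-455-5p, mmu-miR-455-3p, mmu-miR-140-5p and mmu-miR-140-3p (mmu marks the mouse and is dropped from here on), were taken by name from 1452 miRNAs listed in the deposited tables, and all 4 stood in both tables. The hairpins were chosen by measured values of these libraries: miR-455-5p had the smallest p of the plasma comparison and miR-140-3p was among the most abundant miRNAs of the tumour cell vesicles.

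Counts per mature miRNA were deposited for 13 small RNA libraries. The first group was vesicles that C26 cells, a colon adenocarcinoma line from Balb/C mice, released into serum-free medium in 48 h (3 libraries, called TMVs in the labels). The second was plasma vesicles of Balb/C mice that had received C26 cells under the skin of the back, were killed on day 14 and are labelled cachectic (6 libraries, called tumour-bearing here). The third was plasma vesicles of Balb/C mice labelled healthy (4 libraries, the controls). Libraries are numbered by the replicate in their titles. Age, sex and the number of animals behind a library are not given in the labels, and control libraries 2 and 3 carry a pair of numbers each in their names, whose meaning is not stated. All vesicles were pelleted by ultracentrifugation, so fewer vesicles of one origin and fewer copies of a miRNA in each vesicle cannot be told apart.

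MicroRNAs repress messenger RNAs that pair with their seed, bases 2 to 8 of the mature strand. In mouse chondrocytes the transcription factor Sox9 drives miR-140, and mice without miR-140 have short bones and early cartilage wear, with the aggrecan-cutting protease Adamts5 as a known target. Mice without miR-455 also develop cartilage wear, and both of its arms repress the hypoxia factor Epas1 in mouse cartilage. Neither miRNA is restricted to cartilage: miR-140 is found in many tissues, and miR-455 has been studied in brown fat as well.

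The mature strands and the hairpin are shown because the arms behaved differently in these libraries and because their seeds decide which other miRNAs could act alike. They are the RefSeq sequences of GRCm38.p6, written 5′ to 3′, while the build behind the deposited counts is not given in the labels. Capitals mark the seed in the mature strands, and in the hairpin they mark the stretch that becomes miR-140-3p.
miR-455-5p: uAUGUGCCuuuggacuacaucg
miR-455-3p: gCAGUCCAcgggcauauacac
miR-140-3p: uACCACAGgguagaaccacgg
Mir140 hairpin: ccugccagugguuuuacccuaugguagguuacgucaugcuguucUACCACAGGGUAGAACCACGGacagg
The Mir455 precursor lies at 63256851 to 63256932 of chromosome 4 (GRCm38, plus strand), inside an intron of all 4 annotated transcripts of the cartilage collagen gene Col27a1 that span it. The Mir140 precursor lies at 107551244 to 107551313 of chromosome 8 (plus strand), inside Wwp2, which encodes a ubiquitin ligase. It falls in exon 1 of 1 Wwp2 transcript annotated as a retained intron and in an intron of the other 3 transcripts that span it. The 3 mature strands shown have 3 different seeds.

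A single other miRNA of the tables with a RefSeq sequence had the seed of one of these 3 arms. The seed of miR-140-5p, which had no RefSeq sequence here, was not searched. miR-5129-3p shares the seed of miR-455-5p and differs from it in the rest of the strand, as the pair of lines shows.
miR-455-5p: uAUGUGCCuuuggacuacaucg
miR-5129-3p: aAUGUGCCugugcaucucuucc
It had 0, 0, 0, 1, 0 and 2 counts in tumour-bearing libraries 1 to 6 and 0, 10, 7 and 0 counts in control libraries 1 to 4. In TMVs it had 0, 2 and 1 counts. The whole strands are 7 edits apart, and no other mature sequence among the 1676 compared came closer to miR-455-5p. The nearest sequence was 7 edits away for miR-455-3p and 8 for miR-140-3p, so none of the compared miRNAs is near-identical to these arms.

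Library depth sets what can be seen of the scarcer arms. Totals ran from 112357 to 170571 counts in TMVs, from 9828 to 76376 in tumour-bearing plasma and from 7962 to 131385 in control plasma. With up to 3 counts as the limit that 0 counts allow, an undetected miRNA could still reach 305 CPM (counts per library scaled to a common total) in the shallowest tumour-bearing library and 377 CPM in the shallowest control one. The plasma libraries also differ in miR-5119, which held 26.6% to 58.7% of tumour-bearing libraries 1 to 4 and 46.1% of control library 4, against at most 2.55% in the other 5. The listed red cell, liver, platelet and myeloid, and skeletal muscle miRNAs were all detected in each plasma group, apart from 1 red cell name that the tables do not list. Red cell miRNAs held 3.50% to 52.7% of counts in tumour-bearing plasma and 5.98% to 31.3% in controls.

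miR-455-5p was scarce in the plasma vesicles of tumour-bearing mice and regularly present in those of healthy mice. Its 2, 11, 0, 1, 2 and 0 counts in tumour-bearing libraries 1 to 6 were 104, 144, 0, 102, 71.8 and 0 CPM. Its 172, 89, 163 and 4 counts in control libraries 1 to 4 were 1365, 1596, 1241 and 502 CPM. The groups did not overlap, and the highest tumour-bearing library, number 2, lay below the lowest control, number 4. The group means were 70.2 ± 59.0 CPM for tumour-bearing plasma (SD, n = 6) and 1176 ± 473 CPM for control plasma (SD, n = 4), 16.8-fold lower in tumour-bearing plasma.

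The precision of single libraries follows their depth. At the mean control level, tumour-bearing libraries 1 to 6 would have held 22.7, 89.8, 77.7, 11.6, 32.7 and 37.9 counts of miR-455-5p, which shows how far each depth could resolve that level. The 95% Wilson interval of the level, which covers counting error only, ended at 58.1 CPM in tumour-bearing library 3 and at 119 CPM in library 6. It ended at 576 CPM in tumour-bearing library 4, which has 9828 counts, and ran from 195 to 1291 CPM in control library 4, which has 7962. The interval of control library 4, which rests on 4 counts, overlaps those of tumour-bearing libraries 1, 2, 4 and 5. Overlap of intervals is not a test, and whether that library differs from them beyond counting error was not tested. The other 3 controls had lower bounds of 1064 CPM or more.

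**Figure D1:**
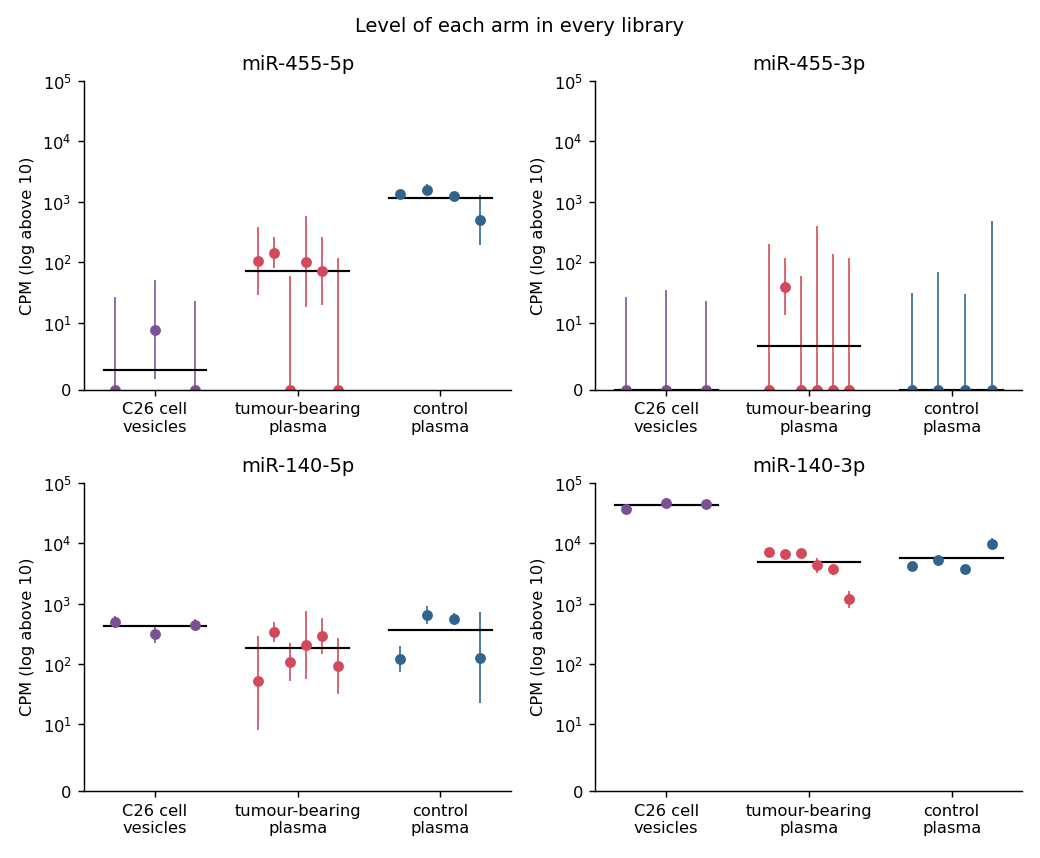
Level of each arm in all 13 libraries, in CPM on an axis that is logarithmic above 10 and linear below it. Points are libraries, vertical bars are 95% Wilson intervals (counting error only) and horizontal lines are group means. miR-455-5p lies between 502 and 1596 CPM in control plasma, from 0 to 144 CPM in tumour-bearing plasma and at or near 0 in C26 cell vesicles, while miR-140-3p is highest in C26 cell vesicles.

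The fitted difference rests on the same values that chose this miRNA and is a description, with no test. In edgeR's quasi-likelihood fit over 130 plasma miRNAs the log2 fold change of miR-455-5p was -4.04 (SE 0.863), against a median of 0.01 over all 130. Of these 130, 0.769% (1 miRNA, miR-455-5p itself) had all 6 tumour-bearing libraries below all 4 controls after TMM scaling, the trimmed-mean correction for library composition. At an adjusted p under 0.05, 0% were called with edgeR, while DESeq2 called 4 of the 130 and limma voom with quality weights 17. At an unadjusted p under 0.05 the share with edgeR was 11.5% (15 miRNAs). The filter on low counts asked for at least 227 CPM in at least 4 libraries, and miR-455-5p reached this in 0 of 6 tumour-bearing and 4 of 4 control libraries, so it entered the fit only through the group where it is high. By mean TMM-scaled CPM miR-455-5p ranked 130th of the 130 in tumour-bearing plasma and 62nd in control plasma.

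The spread of miR-455-5p between controls was below the median of the miRNAs tested. A choice by smallest p favours a small spread within groups, so this is a description. With miR-5119 left out of the totals the level was 1366, 1609, 1249 and 932 CPM in control libraries 1 to 4. The SD of log2 TMM-scaled CPM over the 4 controls was 0.51, the 28th lowest of the 130 miRNAs, against a median of 0.96. In tumour-bearing plasma it was 1.04 against a median of 1.13, where libraries 3 and 6, with 0 counts, set the lower end.

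The difference was present on both sides of the miR-5119 split, with few libraries on each. With miR-5119 left out of the totals, the 2 tumour-bearing libraries poor in miR-5119 had 73.7 and 0 CPM and the 3 controls poor in it had 1249 to 1609 CPM. Among the libraries rich in miR-5119, the 4 tumour-bearing ones had 0 to 234 CPM and the single control had 932 CPM, from 4 counts. The fitted log2 fold change was -5.20 (SE 1.01) within the poor libraries and -4.23 (SE 0.995) with a term for the split. Liver miRNAs, all 3 of 3 listed, held 0.830% to 10.3% of counts in tumour-bearing plasma and 6.71% to 28.3% in controls, and the 3 skeletal muscle miRNAs held 1.76% to 14.9% in tumour-bearing plasma and 0.725% to 4.01% in controls. The part of these tissues in the miR-455-5p difference was not tested.

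C26 cell vesicles gave almost no miR-455. miR-455-5p had 0, 1 and 0 counts in TMV libraries 1 to 3, which is 1 count in 429451 or 2.33 CPM (95% Wilson interval 0.411 to 13.2). The pooled level was 69.1 CPM (42.5 to 112) in tumour-bearing plasma and 1333 CPM (1212 to 1465) in control plasma. The pooled intervals cover counting error only, and 11 of the 16 pooled tumour-bearing counts came from library 2. By pooled level the order from low to high was TMVs, tumour-bearing plasma and control plasma, but by library TMVs and tumour-bearing plasma overlapped, with tumour-bearing libraries 3 and 6 at 0 counts. TMVs and plasma were counted in separate tables, so a difference in counting between them cannot be told apart from one in material.

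The other arm of the hairpin, miR-455-3p, was seen in 1 library. It had 3 counts in tumour-bearing library 2, a level of 39.3 CPM (13.4 to 115), and 0 counts in the other 5 tumour-bearing libraries, all 4 controls and all 3 TMV libraries. It did not pass the filter in the plasma fit. In controls, 0 of 428 miR-455 counts came from the -3p arm, which allows a share of up to 0.701%. In tumour-bearing library 2 it was 3 of 14, or 21.4% (95% Wilson interval 7.57% to 47.6%). Over all tumour-bearing libraries the -3p arm gave 3 of 19 miR-455 counts, or 15.8% (5.52% to 37.6%). All of the -3p counts and 11 of the 16 -5p counts of that group came from the same library, so arm use in tumour-bearing plasma rests on it.

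miR-140-3p was abundant in all 3 materials and was the leading arm of its hairpin everywhere. Its counts were 5331, 5271 and 7609 in TMV libraries 1 to 3, or 36383, 46913 and 44609 CPM. Plasma levels were 7099, 6586, 6960, 4274, 3663 and 1179 CPM in tumour-bearing libraries 1 to 6 and 4190, 5218, 3699 and 9797 CPM in control libraries 1 to 4. Every TMV library lay above every plasma library, but miR-140-3p was chosen for its abundance in TMVs. The share of all miRNAs with such an order was not computed, so it is not shown to be particular to miR-140-3p. Among the other listed miRNAs studied in cartilage, miR-199a-3p had the same order, with at least 1.18% of counts in TMVs and at most 0.339% in plasma. The order was also that of miR-199a-5p, miR-29a-3p, miR-320-3p, miR-222-3p, miR-9-5p and miR-210-3p. Of that list only miR-146a-5p had the opposite one, with at most 0.0229% in TMVs and at least 0.0434% in plasma. The plasma groups overlapped for miR-140-3p, with control library 4 above all tumour-bearing libraries and tumour-bearing libraries 5 and 6 below all controls. The means were 42635 ± 5535 CPM (SD, n = 3) in TMVs, 4960 ± 2353 CPM (n = 6) in tumour-bearing and 5726 ± 2787 CPM (n = 4) in control plasma. TMVs were thus 8.60-fold above tumour-bearing and 7.45-fold above control plasma, a description across tables counted separately. By count it ranked 5th to 7th among the miRNAs of a TMV library, 13th to 58th in tumour-bearing plasma and 14th to 41st in control plasma.

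No difference in miR-140-3p between the plasma groups was detected. The log2 fold change was -0.17 (SE 0.604, 95% interval -1.50 to 1.15), and edgeR's quasi-likelihood test with Benjamini-Hochberg adjustment over 130 miRNAs gave an adjusted p of 0.908 (0.433 to 0.998 over the alternatives). As folds the interval runs from 0.355 to 2.23 times the control level, so it does not show that the groups are alike. The sign was not stable. Leaving out control library 4 gave 0.70 (SE 0.611, edgeR adjusted p = 0.514), and with that library kept DESeq2 gave 0.038 and limma voom 0.40. The median over all 130 miRNAs was 0.20 with DESeq2, above its value for miR-140-3p, and 0.02 with limma voom, against 0.01 with edgeR. Nothing states that the libraries came from separate animals, so these p-values measure the spread between libraries.

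miR-140-3p moved with miR-5119 across plasma libraries of both groups. With miR-5119 left out of the totals, miR-140-3p stood at 9668, 10698, 16851 and 7260 CPM in the tumour-bearing libraries rich in miR-5119 (1 to 4) and at 18169 CPM in the control rich in it (library 4). In the libraries poor in miR-5119 it stood at 3759 and 1183 CPM in tumour-bearing libraries 5 and 6 and at 4194, 5261 and 3723 CPM in control libraries 1 to 3. The 5 rich libraries did not overlap with the 5 poor ones, as was so, with the rich ones higher, for 13.2% (17) of the 129 miRNAs tested other than miR-5119 and for 24.8% with the rich ones higher or lower. Tumour-bearing libraries make up 4 of the 5 rich and 2 of the 5 poor, so the split bears on the group comparison. Among the poor libraries the fitted value was -0.79 (SE 0.516, edgeR adjusted p = 0.539). Among the rich it was -0.93 (SE 0.616, edgeR adjusted p = 0.745), which rests on a single control with 78 counts of miR-140-3p, assumed to vary like the others. With a term for the split it was -0.84 (SE 0.401, edgeR adjusted p = 0.433).

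**Figure D2:**
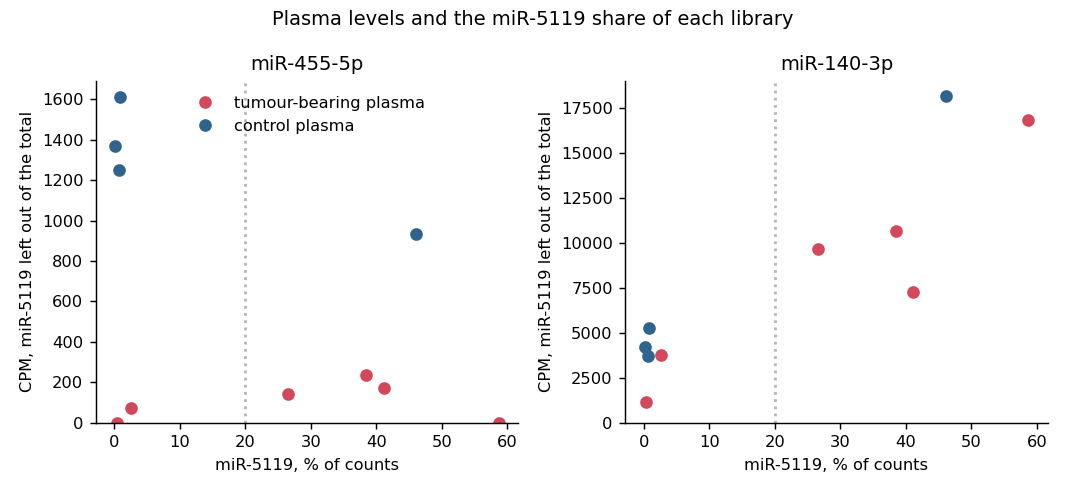
Level of miR-455-5p (left) and miR-140-3p (right) in the 10 plasma libraries, in CPM with miR-5119 left out of the total, against the percent of counts held by miR-5119. The dotted line stands at 20%. miR-455-5p separates tumour-bearing (0 to 234 CPM) from control libraries (932 to 1609 CPM) on either side of the line, and miR-140-3p separates libraries left of the line (1183 to 5261 CPM) from those right of it (7260 to 18169 CPM).

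miR-140-5p, the arm known for Adamts5 in mouse cartilage, was the minor arm. It had 73, 35 and 76 counts in TMV libraries 1 to 3, a mean of 418 ± 96.3 CPM (SD, n = 3). In plasma it had 1, 26, 7, 2, 8 and 3 counts in tumour-bearing libraries 1 to 6 and 15, 36, 74 and 1 counts in control libraries 1 to 4. The means were 180 ± 116 CPM (SD, n = 6) in tumour-bearing plasma and 363 ± 280 CPM (SD, n = 4) in controls, and the groups overlapped. The log2 fold change was -0.81 (SE 0.625, 95% interval -2.18 to 0.56), with an edgeR adjusted p of 0.651 (0.408 to 0.894 over the alternatives that gave a value). It reached the filter in 2 libraries of each plasma group. TMVs held 2.32 times the level of tumour-bearing plasma and 1.15 times that of control plasma for this arm, a smaller excess than for miR-140-3p.

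The arm balance of miR-140 varied between libraries of the same plasma group. The -3p arm gave 98.6%, 99.3% and 99.0% of the miR-140 counts in TMV libraries 1 to 3. It gave 99.3%, 95.1%, 98.5%, 95.5%, 92.7% and 92.7% in tumour-bearing libraries 1 to 6 and 97.2%, 89.0%, 86.8% and 98.7% in control libraries 1 to 4. The intervals of control libraries 2 (85.1% to 91.9%) and 3 (83.7% to 89.3%) lay below those of control libraries 1 (95.5% to 98.3%) and 4 (93.2% to 99.8%). The low pair are the controls that carry a pair of numbers in their names, and they also held all 17 control counts of miR-5129-3p.

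Group means of the -3p share differed by less than could be called. They were 99.0% ± 0.346 (SD, n = 3) in TMVs, 95.6% ± 2.79 (n = 6) in tumour-bearing and 92.9% ± 5.93 (n = 4) in control plasma. The difference of 2.68 percentage points between tumour-bearing and control plasma gave p = 0.333 in a two-sided exact permutation test, where the smallest possible p is 0.00952. Its direction rests on control libraries 2 and 3: it was 1.37 points without library 2, 0.634 without library 3 and -2.36 without both, and 4.12 without control library 1 and 4.62 without control library 4. TMVs were 3.38 points above tumour-bearing plasma (exact permutation p = 0.0952, smallest possible 0.0238). They were 6.06 points above control plasma (exact permutation p = 0.114, smallest possible 0.0571). Adjusted over these 3 comparisons, the exact permutation p-values were 0.333, 0.171 and 0.171. miR-140-3p was chosen for its abundance in TMVs, and those counts enter this share. The comparisons with TMVs are therefore not independent of that choice and are read as descriptions. Every TMV library was above 5 of the 6 tumour-bearing libraries, and tumour-bearing library 1 (99.3%, 1 count of miR-140-5p) lay above 2 of the 3 TMV libraries. Without that library the difference was 4.11 points, the largest with a single library left out, where it ran from 2.79 points. As a log2 ratio of the arms, which weighs small -5p shares more, TMVs were 2.04 above tumour-bearing plasma. Over the 11 alternatives for TMVs against tumour-bearing plasma the exact permutation p ran from 0.0357 to 0.286, and none is read as support.

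**Figure D3:**
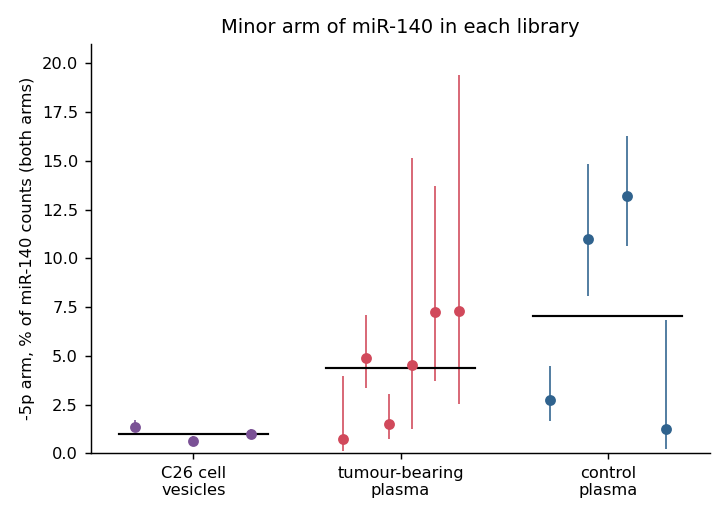
Share of miR-140 counts that came from the minor -5p arm, in percent of both arms, in all 13 libraries. Points are libraries, vertical bars are 95% Wilson intervals (counting error only) and horizontal lines are group means. C26 cell vesicles lie near 1%, and control plasma holds both the highest libraries, 2 and 3, and some of the lowest.

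Set against each other within a library, the leading arms of the 2 hairpins give a ratio that no scaling of the library changes. miR-455-5p gave 0, 0.0190 and 0 counts per 100 counts of miR-140-3p in TMV libraries 1 to 3. It gave 1.46, 2.19, 0, 2.38, 1.96 and 0 in tumour-bearing libraries 1 to 6 and 32.6, 30.6, 33.5 and 5.13 in control libraries 1 to 4. The 3 controls poor in miR-5119 lay within a narrow band, and control library 4, rich in miR-5119, lay well below them with an interval of 1.95 to 13.5 that overlaps those of 5 of the 6 tumour-bearing libraries. That low ratio comes with 932 CPM of miR-455-5p and 18169 CPM of miR-140-3p without miR-5119, the highest miR-140-3p level of any plasma library. On this scale the separation of the groups therefore rests mainly on control libraries 1 to 3. miR-455-5p was chosen for its difference between these plasma groups and miR-140-3p for its abundance in TMVs. The order of the groups by this ratio was thus largely fixed in advance and is a description that adds no support. The S numbers in the plasma labels run from 19 to 24 in tumour-bearing libraries and from 15 to 18 in controls, so whatever they stand for cannot be told apart from the group.

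**Figure D4:**
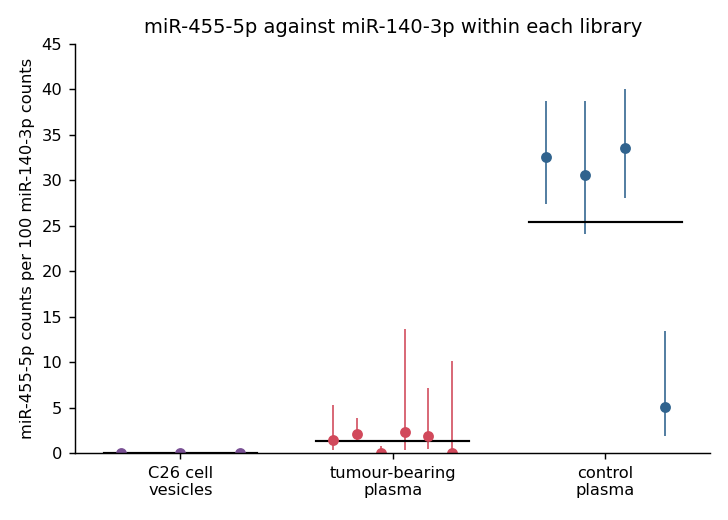
Counts of miR-455-5p per 100 counts of miR-140-3p in each of the 13 libraries, on a linear axis. Points are libraries, vertical bars are intervals derived from the 95% Wilson interval of the share and horizontal lines are group means. Control libraries 1 to 3 lie at 30.6 to 33.5, control library 4 at 5.13 and all tumour-bearing libraries at 2.38 or lower. Both miRNAs were chosen by values of these libraries, so the order of the groups is a description.

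Over the 10 plasma libraries the arms did not follow one another closely. The Pearson correlation of log2 TMM-scaled CPM with miR-455-5p was 0.44 for miR-140-5p and 0.13 for miR-140-3p. All such values share libraries, groups and the miR-5119 split and are descriptions. The miRNAs most like miR-455-5p were miR-200a-3p (r = 0.91), an epithelial miRNA, miR-181a-5p (0.81) and miR-194-5p (0.73), a liver and gut miRNA. miR-200a-3p had a median of 159 TMM-scaled CPM in tumour-bearing plasma and 361 in controls. The miRNAs most like miR-140-3p were miR-15b-5p (0.93), miR-30c-5p (0.86) and miR-5118 (0.83). For miR-140-5p they were miR-181a-5p (0.67), miR-5099 (0.56) and miR-214-3p (0.53), values low enough for counts this small that no likeness can be read from them.

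Other miRNAs studied in cartilage gave no call in the plasma comparison, as was so for all miRNAs tested. Of 17 listed, 7 passed the filter in plasma, and 0 of these 7 passed edgeR's adjusted p of 0.05, where the share over all 130 was 0%. At an unadjusted p under 0.05 it was 0 of 7, against 11.5% of all 130, a share at which a list of 7 can hold none. Their log2 fold changes were below 0 in 4 and above 0 in 3, with a median of -0.02 against 0.01 over all 130. miR-146a-5p, which dampens inflammatory signalling, was at -1.18 (SE 0.60, edgeR adjusted p = 0.441). miR-199a-3p was at 0.77 (SE 0.766), miR-222-3p at -0.50 (SE 0.798) and miR-320-3p at -0.22 (SE 0.414), with edgeR adjusted p-values of 0.746, 0.789 and 0.823. miR-675 and miR-1247, both tied to Sox9 in human chondrocytes, were scarce. miR-675-5p, from the H19 transcript, had 1 count in tumour-bearing plasma and 0 in controls and TMVs, and miR-675-3p and miR-1247-5p had 0 counts in all 13 libraries. In TMVs the leading listed miRNAs were miR-199a-3p with 1.53% ± 0.567, miR-29a-3p with 1.06% ± 0.202 and miR-320-3p with 0.757% ± 0.20 of counts (SD, n = 3).

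Across scalings, filters, tools and left-out libraries the miR-455-5p difference kept its sign, and that of miR-140-3p did not. miR-455-5p was chosen for its difference in this same comparison, where its groups did not overlap. Its sign was thus largely fixed in advance, and keeping it is a description that adds no support.

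**Figure D5:**
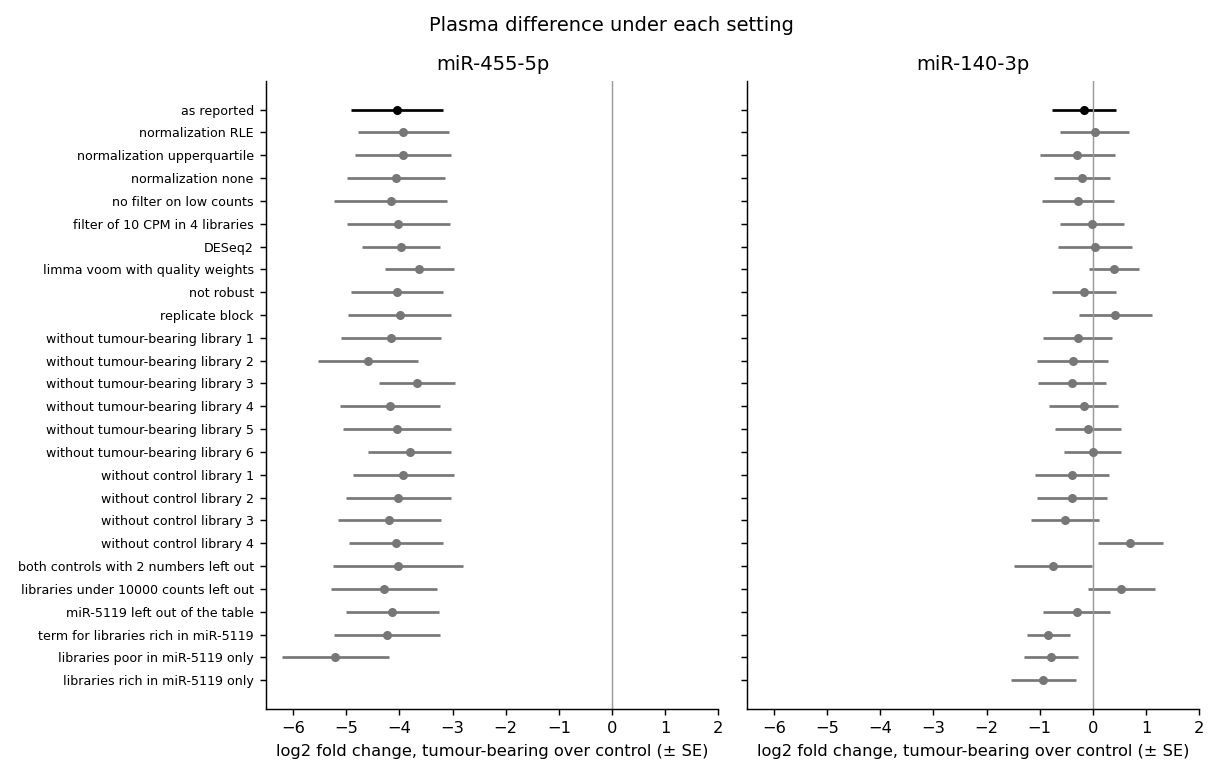
Log2 fold change of tumour-bearing over control plasma, with its standard error, for miR-455-5p (left) and miR-140-3p (right) under each scaling, filter, tool or choice of libraries. Points are fitted values, and miR-455-5p has no point where it did not pass the filter. miR-455-5p, chosen for its difference in this comparison, stays between -5.20 and -3.62, while miR-140-3p lies between -0.93 and 0.70 and crosses 0.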

How the data were processed

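Per the labels' protocols, RNA of vesicle pellets was made into small RNA libraries and read as 75 bp single reads. Bcl2fastq and cutadapt 1.10 were used, per the submitters' processing notes; the aligner, counter and build are not given in the labels. The authors deposited raw counts, 1 table of 1164 miRNAs for TMVs and 1 of 1354 for plasma. Titles gave groups and replicate numbers. Plasma was fitted with edgeR 4.0.16 in R 4.3.3 (filterByExpr, minimum count 10, 130 miRNAs kept, TMM, robust quasi-likelihood, Benjamini-Hochberg over all 130). The fit was also run on simulated counts with less spread between libraries than was fitted here. That run does not show how the fit behaves at the spread of these libraries. CPM and arm shares were computed from the deposited counts with 95% Wilson intervals, and -3p shares were compared with two-sided exact permutation tests. Intervals and the 3-count floor cover counting error only. DESeq2 1.42.0, limma 3.58.1 and other scalings, filters and library choices were alternatives.

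The hairpins, lists and tests were chosen with earlier results of these data known. Named are the 4 arms, miRNAs sharing their seed, the 3 most correlated with each arm tested and, of 17 other miRNAs studied in cartilage, the 4 of smallest p and the 3 most abundant in TMVs. RefSeq gave a mature sequence for 1251 of 1452 names and for 3 of the 4 arms. Python 3.11.15, numpy 2.4.6, pandas 2.3.3 and scipy 1.17.1 served the other steps.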

Additional observations from a re-analysis of the deposited data

Results flagged for a closer look

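Among 11 sets of values of 1 plasma group checked for a library far from the rest, 2 were singled out, and chance singles out about 1 in 20. miR-455-3p stood at 39.3 CPM in tumour-bearing library 2, from 3 counts, against 0 in the other 5 libraries of that group. With 0 in all the others, any count would have been singled out, so the rate of 1 in 20 does not apply to this set. miR-455-5p per 100 counts of miR-140-3p was 5.13 in control library 4, against 30.6 to 33.5 in the other 3 controls, and that library has 7962 counts and holds 46.1% miR-5119.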

How the results depend on the processing

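The log2 fold change of miR-455-5p stayed below 0 under all 24 alternatives that gave a value. It ran from -5.20 within the libraries poor in miR-5119 to -3.62 with limma voom, and from -4.59 to -3.66 with each library left out. These fits reuse the values that chose miR-455-5p, so the kept sign is a description. miR-455-5p did not pass the filter among the libraries rich in miR-5119. For miR-140-3p the sign turned with RLE scaling (0.034), DESeq2 (0.038), limma voom (0.40), the replicate block (0.42) and without libraries under 10000 counts (0.53). The range with each library left out was -0.52 to 0.70. RLE also moved the median over all miRNAs to 0.19 and DESeq2 moved it to 0.20, both above the values for miR-140-3p. miR-140-5p stayed below 0 wherever it passed the filter. miR-455-3p passed in no setting that filters. Calls over all miRNAs, 0 as reported with edgeR, were 4 with no filter, 4 with DESeq2, 17 with limma voom, 2 with a term for miR-5119, 1 within the libraries rich in it, and 0 to 1 with each library left out. The replicate block gave 0 calls; same-numbered plasma libraries did not deviate together (r from -0.37 to 0.16), so numbers were not taken as pairs. The -3p share of miR-140, 2.68 points higher in tumour-bearing than in control plasma, differed by -2.36 points without both controls that carry 2 numbers, and by 0.634 to 4.62 points with each library left out. TMVs exceeded tumour-bearing plasma by 2.79 to 4.11 points and control plasma by 4.01 to 8.0 points with each library left out. As a log2 ratio of the arms the first was 2.04. Both comparisons with TMVs use the counts for which miR-140-3p was chosen and are descriptions. With miR-5119 out of the totals, miR-140-3p averaged 8236 CPM in tumour-bearing and 7837 CPM in control plasma, which turns the order of the means (4960 and 5726 CPM). Causes of these shifts were not tested. Shallow libraries limit the scarce arms: 1 count is worth over 100 CPM in those under 10000 counts.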
